A study of Homo sapiens with 12 samples.

Results

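The response of M1-polarized human macrophages to MCHP was described from 6 libraries of the 12 in the series, 3 of cells given MCHP and 3 of cells given the solvent DMSO, and across all 14269 genes with enough counts to test. The cells were (PPRE)-eGEP-THP-1, which derive from THP-1, an established line of human leukaemic monocytes. PPRE usually stands for a peroxisome proliferator response element, the DNA site bound by PPAR receptors, but the labels expand neither PPRE nor MCHP, and whether the line is 1 clone is not stated. In all groups, 48 h in 25 ng/mL phorbol 12-myristate 13-acetate had turned the monocytes into macrophages, and a 24 h rest in fresh medium followed. M1 cells were then given lipopolysaccharide at 100 ng/mL and interferon gamma at 20 ng/mL for 24 h, together with 100 µM MCHP or with DMSO. The 6 M2 libraries, used here only for the comparison of responses, came from cells given interleukin 4 and interleukin 13 at 20 ng/mL each, with the same MCHP dose or DMSO.

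PPARs are nuclear receptors that are activated by fatty acids and many synthetic ligands. Bound to DNA with their partner RXR, they switch on genes for the uptake, storage and burning of lipid, and in macrophages activated PPARs are also known for damping inflammatory genes. Lipopolysaccharide, sensed by TLR4, drives cytokine genes through NF-kB and the type I interferon loop, and interferon gamma drives chemokine, antigen-presentation and antimicrobial genes through IRF1 and other factors.

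The 6 libraries held 14355615 to 16812886 counts. The M1 label was checked against marker genes: 9 of 11 M1 markers, among them CXCL9, CXCL10, GBP1 and IRF1, were higher in every M1 library than in every M2 library. Of 10 M2 markers, 3 (CCL22, CD209 and ALOX15) were lower in every M1 library, 1 (CLEC10A) was higher, and 4 were at 0 in M1 DMSO cells. In the same cells 13 of 16 macrophage markers reached 1 CPM (the count scaled to library size, with TMM factors), while CD68, MSR1 and ADGRE1 averaged 0.07, 0.15 and 0.54 CPM. The first principal component over genes with a mean of at least 5 CPM, with 29.2% of the variance, put all MCHP libraries on one side and all DMSO libraries on the other. Replicates of a group differed by more than counting noise in every pair, and nothing states that they came from separate cultures, so p-values measure the spread between these samples, which may be technical.

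MCHP changed a small share of the transcriptome, and by small amounts. Of 14269 genes tested, 149 rose (1.04%) and 146 fell (1.02%) at an adjusted p under 0.05 (edgeR quasi-likelihood test), 2.07% in all. The median change was 16.5% among genes that rose and -16.0% among those that fell. The changes reached 0.5 on the log2 scale in 18 genes that rose and 18 that fell, and 1 on that scale in 8 that rose and 4 that fell. Over all tested genes the median was -0.0021. MCHP and DMSO libraries did not overlap for 289 of the 295 called genes, against 16.6% of all tested genes. With 3 libraries a group a call largely requires such a gap, so this share is no separate support. When the spread was estimated over all 12 libraries instead, 13 genes were called (0.0852%), 11 that rose and 2 that fell, and all 13 were among the 295: CD36, PLIN2, NR1H3, GPC1, SHANK3, TLR4, ATF3, FGR, MMP19, PODXL and VIPR2 rose, and ALAS1 and IL10RA fell. The fewest calls with 1 library left out were 185 and 191, without MCHP replicate 2 and without MCHP replicate 1. Of the called genes that the naming rule picked, 50 of 90 were called in all 6 such analyses, and 24 lost the call in 3 or more: ABCA1, TLR8 and INSIG1 in 6, ALDOA, CYBB, ERN1, LDHA, MMP1 and OAS3 in 5, IL6R, LSS, LYZ, PADI2, PPP2R3A and RPS24 in 4, and APOE, C6orf223, CSF1R, CSF2RB, DDIT4, GAPDH, JUNB, OASL and PPARG in 3 (adjusted p up to 0.31).

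**Figure D1:**
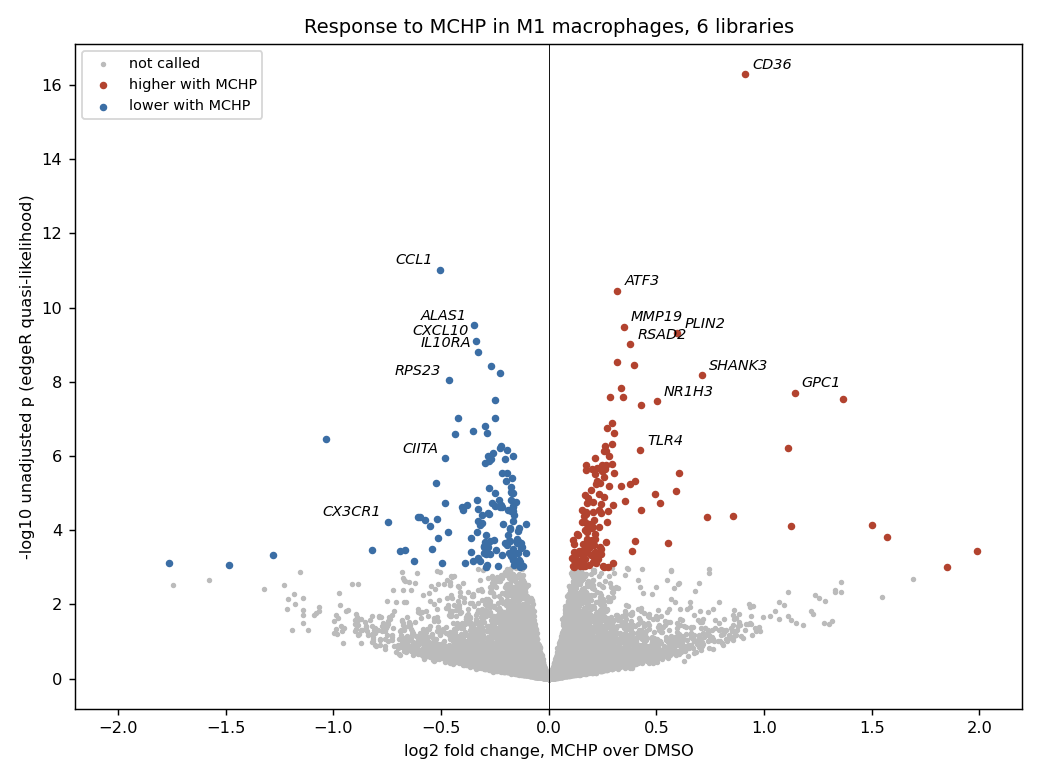
Each point is 1 of 14269 genes in M1 macrophages, with the log2 fold change of MCHP over DMSO on the x axis and the -log10 unadjusted p of edgeR's quasi-likelihood test on the y axis. CD36 stands highest at a log2 fold change of 0.91, and most of the 149 red genes (higher) and 146 blue genes (lower) lie within 0.5 of 0.

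The promoters of 5 of the genes described below are shown because they carry, on either side of the response, letters of sites known from PPAR and interferon biology: AGGTCA, the core site of PPAR, RXR and other nuclear receptors, and GAAA, any 2 bases and GAAA again, the core of the interferon-stimulated response element. Each is the stretch of 250 bases before the annotated start, from RefSeq (GRCh38.p14), written along the gene's strand, with matches in capitals. NR1H3 and OAS3 rose, and PPARG, CXCL10 and CXCL9 fell. Other genes described below carry the same letters and are not shown, among them ATF3, SQSTM1 and CKMT1B with AGGTCA. EIF3C, TXNRD1, NCF1 and CYBB carry the interferon letters.
NR1H3, chr11:47248050-47248299, + strand: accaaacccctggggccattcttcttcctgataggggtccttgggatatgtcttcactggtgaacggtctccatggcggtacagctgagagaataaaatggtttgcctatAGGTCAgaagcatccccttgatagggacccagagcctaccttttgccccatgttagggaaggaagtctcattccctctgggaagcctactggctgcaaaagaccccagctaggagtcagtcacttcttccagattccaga
PPARG, chr3:12287118-12287367, + strand: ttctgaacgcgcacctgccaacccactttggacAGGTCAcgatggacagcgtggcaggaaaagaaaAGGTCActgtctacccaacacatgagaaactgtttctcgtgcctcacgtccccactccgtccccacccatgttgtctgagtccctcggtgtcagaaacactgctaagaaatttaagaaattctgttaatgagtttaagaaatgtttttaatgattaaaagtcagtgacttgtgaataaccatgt
CXCL10, chr4:76023498-76023747, - strand: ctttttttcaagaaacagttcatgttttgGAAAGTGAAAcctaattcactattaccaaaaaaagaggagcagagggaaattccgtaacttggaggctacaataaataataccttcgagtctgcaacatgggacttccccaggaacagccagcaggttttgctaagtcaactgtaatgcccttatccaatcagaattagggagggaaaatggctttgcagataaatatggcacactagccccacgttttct
CXCL9, chr4:76007510-76007759, - strand: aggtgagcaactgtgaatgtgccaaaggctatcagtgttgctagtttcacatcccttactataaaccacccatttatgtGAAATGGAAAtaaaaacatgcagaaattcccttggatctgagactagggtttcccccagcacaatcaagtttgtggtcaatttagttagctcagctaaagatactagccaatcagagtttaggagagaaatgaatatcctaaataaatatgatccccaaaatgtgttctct
OAS3, chr12:112938224-112938473, + strand: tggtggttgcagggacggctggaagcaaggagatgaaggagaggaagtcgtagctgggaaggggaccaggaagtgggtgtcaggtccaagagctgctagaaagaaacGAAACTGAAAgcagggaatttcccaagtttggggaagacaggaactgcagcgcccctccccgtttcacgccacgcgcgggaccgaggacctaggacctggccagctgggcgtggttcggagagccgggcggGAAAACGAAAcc

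Over 250 bases before and 50 after the start, on both strands, AGGTCA was found in 10.6% of the 104 promoters on record for genes that rose, in 9.62% of the 104 for genes that fell and in 9.96% of the 9902 for all tested genes, so its share was about the same in all 3. The paired form, AGGTCA followed by any 1 base and AGGTCA again, the full PPAR element, was found in none of the promoters of called genes and in 0.0303% of those of all tested genes. The interferon core was found in 4.81% of promoters of genes that rose, in 9.62% of those of genes that fell and in 3.10% of all tested genes. TGANTCA, the AP-1 site, was found in 7.69%, 4.81% and 4.76% of these groups, in the same order. TGACGTCA, the CRE site, was found in 1.92%, 5.77% and 3.15%. Among all 27305 promoters of the table, the shares were 13.9% for AGGTCA, 0.022% for its paired form, 3.65% for the interferon core, 7.76% for TGANTCA and 1.98% for TGACGTCA. A match is a run of letters and not a measured site, and 1 start per gene was scanned. The windows of CD36 and PLIN2 held none of these motifs, but the starts scanned lie inside the gene spans given below for them, and other starts were not scanned.

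CD36, a PPAR target of lipid uptake, had the smallest p of all tested genes. Of 27 tested PPAR targets, 7 rose (CD36, PLIN2, NR1H3, ACADVL, ACSL1, ACSL5 and TGM2) and 2 fell (LPL and PLTP), against 1.04% and 1.02% of all tested genes, with a median log2 fold change of 0.13, against -0.0021 over all tested genes. The list was written with earlier results of these data known. CD36, a scavenger receptor that takes up fatty acids and oxidized lipoproteins (chromosome 7, 80369575 to 80679277, + strand, hg38), had 88.5, 82.1 and 83.4 CPM in MCHP libraries, against 44.6, 46.0 and 44.6 CPM in DMSO libraries. All MCHP libraries lay far above all DMSO libraries, and the log2 fold change was 0.91 ± 0.05 (SE; adjusted p = 7.3e-13, edgeR quasi-likelihood test), or 1.88-fold. It kept its call in all 20 alternative analyses.

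PLIN2, the coat protein of lipid droplets (chromosome 9, 19108375 to 19149290, - strand), had 56.1, 50.2 and 52.6 CPM with MCHP, against 34.3, 38.2 and 32.8 CPM with DMSO. The groups did not overlap, and the log2 fold change was 0.60 ± 0.07 (SE; adjusted p = 1.1e-06, edgeR). NR1H3 encodes LXR alpha, the oxysterol receptor that governs cholesterol export (chromosome 11, 47248300 to 47269032, + strand). It had 38.4, 39.9 and 39.8 CPM in MCHP libraries, against 28.5, 26.4 and 28.6 CPM in DMSO libraries. The 3 MCHP values stood within 2 CPM of each other and above every DMSO value, with a log2 fold change of 0.50 ± 0.07 (SE; adjusted p = 2.2e-05, edgeR). ACADVL, the first enzyme of long-chain fatty acid oxidation, had 326, 335 and 330 CPM with MCHP, against 285, 295 and 274 CPM with DMSO (log2 fold change 0.21, adjusted p = 0.00034, edgeR).

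Of the acyl-CoA synthetases, which activate long-chain fatty acids, ACSL1 averaged 296 CPM with MCHP and 258 CPM with DMSO (adjusted p = 0.00055, edgeR), and ACSL5 averaged 152 and 130 CPM in the same order (adjusted p = 0.0011, edgeR). ACSL3, with 160 CPM with MCHP and 147 CPM with DMSO, had a log2 fold change of 0.12 and did not pass (adjusted p = 0.14, edgeR). Other PPAR targets did not pass the test: FABP5, a fatty acid carrier, had a log2 fold change of 0.31 (adjusted p = 0.10), SLC25A20, the mitochondrial carnitine carrier, 0.37 (adjusted p = 0.36), CPT1A, the gate of mitochondrial fatty acid import, 0.13 (adjusted p = 0.51), and ANGPTL4, a secreted inhibitor of lipoprotein lipase, 0.17 (adjusted p = 0.80, all edgeR). FABP4, a textbook PPARG target, was too low for the count filter and was not tested: it had 13, 6 and 11 counts in MCHP libraries, against 1, 3 and 2 counts in DMSO libraries, a ratio of the summed counts of 4.93 after correction for depth (exact 95% binomial interval 2.02 to 14.5, counting error only). PDK4, another such target, had 0 counts in all 6 libraries.

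Of 12 tested lipid droplet and lipolysis genes, PLIN2, MGLL and DGAT2 rose and 0 fell, against 1.04% and 1.02% of all tested genes, and the list had a median log2 fold change of 0.08 with 2 negative members. MGLL, which releases the last fatty acid from a glyceride, had 104, 110 and 105 CPM with MCHP, against 85.2, 79.8 and 86.2 CPM with DMSO, without overlap (log2 fold change 0.34 ± 0.05, SE; adjusted p = 1.9e-05, edgeR). DGAT2, which makes triglyceride, averaged 243 ± 3.67 CPM with MCHP and 214 ± 3.02 CPM with DMSO (SD, n = 3 each; adjusted p = 0.0021 by edgeR). PNPLA2, the main triglyceride lipase, had a log2 fold change of -0.07 (adjusted p = 0.51, edgeR).

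The LXR list was split before a correction for gene length. Of 12 tested LXR targets and cholesterol export genes, NR1H3, SCD and ABCA1 rose and APOE and PLTP fell. The called share was 41.7%, against 2.07% of all tested genes, and the list's median log2 fold change was 0.03. SCD, which desaturates fatty acids, had 1438, 1478 and 1433 CPM with MCHP, against 1288, 1259 and 1315 CPM with DMSO, all MCHP libraries above all DMSO libraries (log2 fold change 0.17, adjusted p = 0.00046, edgeR). ABCA1, the cholesterol exporter, changed by 0.11 (adjusted p = 0.047, edgeR) and APOE, a lipoprotein component, by -0.13 (adjusted p = 0.020, edgeR). Neither passed after a correction for gene length (adjusted p = 0.15 for ABCA1 and 0.12 for APOE, edgeR). With that correction 2 genes of the list rose and 0 fell, so PLTP was not called either. ABCG1 had a log2 fold change of -0.10 (adjusted p = 0.93, edgeR), at 3.36, 2.38 and 1.84 CPM with MCHP and 2.81, 2.54 and 2.83 CPM with DMSO.

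Of 24 tested fatty acid oxidation genes, 1 rose (ACADVL) and 1 fell (HADH), or 8.33% called against 2.07% of all tested genes, and the median log2 fold change was 0.02. HADH, an enzyme of the short-chain end of that pathway, had 76.8, 78.0 and 78.6 CPM with MCHP, against 93.4, 98.8 and 85.8 CPM with DMSO, with no overlap (adjusted p = 0.0029, edgeR). Of 24 cholesterol synthesis and uptake genes, INSIG1 and LSS rose, with log2 fold changes of 0.13 and 0.22 (adjusted p = 0.039 and 0.033, edgeR), 0 fell, again 8.33% called, and the median was -0.01.

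**Figure D2:**
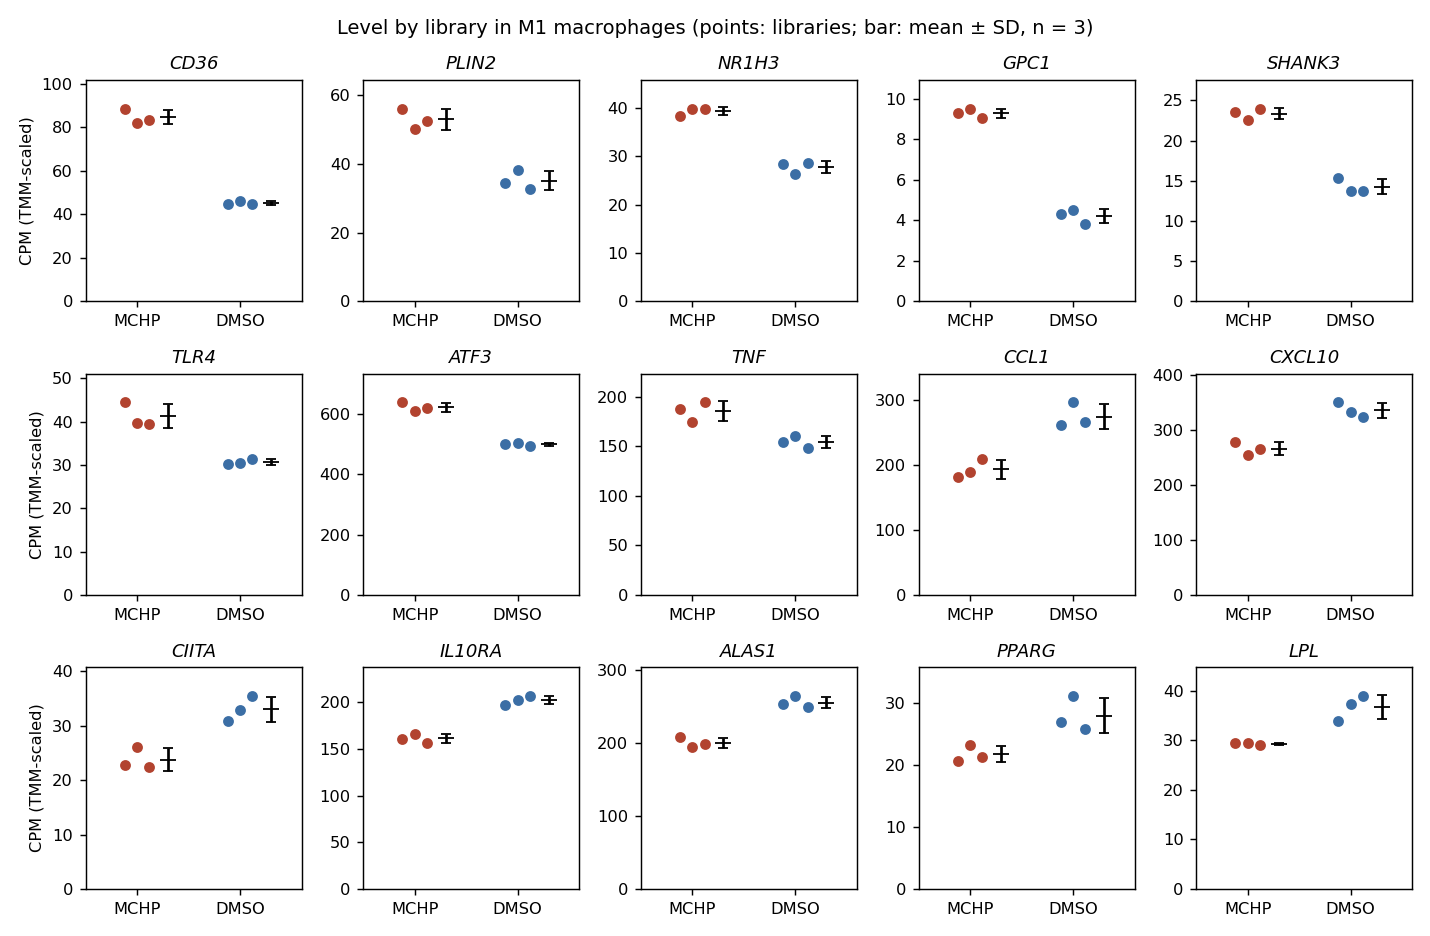
Levels of 15 genes in M1 macrophages in CPM (y axis, from 0), one point per library with MCHP on the left and DMSO on the right, and a bar for the mean ± SD of 3 libraries. CD36 and GPC1 show the widest gaps relative to their level, while TNF, ATF3 and TLR4 show smaller gaps, still without overlap.

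Of 14 tested PPAR and RXR receptor and coregulator genes, 1 rose and 1 fell, PPARG, or 14.3% called against 2.07% of all tested genes. The 14 had a median log2 fold change of 0.02. PPARG had 20.7, 23.2 and 21.4 CPM in MCHP libraries, against 26.9, 31.1 and 25.8 CPM in DMSO libraries. Its highest MCHP library lay below its lowest DMSO library, and the log2 fold change was -0.36 ± 0.08 (SE; adjusted p = 0.013, edgeR). The call was lost in 3 of 6 analyses that left out 1 library (highest adjusted p = 0.16). PPARA, at 49.8, 49.8 and 47.1 CPM with MCHP and 45.4, 43.2 and 43.8 CPM with DMSO, had a log2 fold change of 0.15 (adjusted p = 0.25, edgeR), PPARD one of -0.05 (adjusted p = 0.51) and RXRA one of -0.07 (adjusted p = 0.67).

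LPL, the secreted lipase that frees fatty acids from lipoproteins, went against most of its list. It had 29.4, 29.4 and 28.98 CPM with MCHP, against 33.9, 37.2 and 38.9 CPM with DMSO, and its log2 fold change was -0.33 ± 0.07 (SE; adjusted p = 0.0058, edgeR). PLTP, a lipid transfer protein, averaged 21.9 CPM with MCHP and 26.9 CPM with DMSO (adjusted p = 0.049, edgeR), a call that was lost after the correction for gene length. Of 9 tested scavenger receptors, with a median of -0.04, 22.2% were called, against 2.07% of all tested genes: CD36 rose and 1 fell. That gene, OLR1, another receptor for oxidized lipoprotein, fell to 265, 274 and 278 CPM with MCHP, against 323, 326 and 306 CPM with DMSO (log2 fold change -0.23, adjusted p = 0.00022, edgeR). In bulk RNA, fewer cells of a kind and less RNA per cell cannot be told apart.

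Lipid-associated macrophages, the state named in the series title, were covered by a list of 21 tested markers. CD36 and PLIN2 rose and SPP1, APOE, LPL and CD9 fell, or 28.6% called against 2.07% of all tested genes. The list's median log2 fold change of -0.02 turned to 0.00 after a correction for gene length. SPP1, which encodes osteopontin, had 1065, 1046 and 1095 CPM with MCHP, against 1144, 1224 and 1255 CPM with DMSO, without overlap (log2 fold change -0.18, adjusted p = 0.0013, edgeR). TREM2, the lipid-sensing receptor that defines this state, had 4.67, 6.44 and 5.77 CPM with MCHP and 8.23, 8.94 and 6.89 CPM with DMSO. Its 3 MCHP values lay below its 3 DMSO values, but its log2 fold change of -0.51 did not pass the test (adjusted p = 0.092, edgeR).

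Inflammatory genes were called in both directions. Of 24 tested NF-kB cytokine and chemokine genes, 5 rose (PTGS2, TNF, LIF, CCL3 and TNFAIP3) and 1 fell (CCL1). That is 25.0% called, against 2.07% of all tested genes, with a median log2 fold change of 0.13. TNF, the central inflammatory cytokine, had 187, 174 and 194 CPM in MCHP libraries, against 154, 160 and 149 CPM in DMSO libraries, without overlap (log2 fold change 0.26 ± 0.04, SE; adjusted p = 0.00025, edgeR). PTGS2, the inducible cyclooxygenase, had 171, 161 and 161 CPM with MCHP, against 135, 133 and 139 CPM with DMSO (adjusted p = 9e-05, edgeR). LIF, a cytokine of the interleukin 6 family, had 233, 226 and 227 CPM with MCHP, against 193, 203 and 179 CPM with DMSO (adjusted p = 0.00025, edgeR).

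CCL1, a chemokine that attracts CCR8-bearing cells (chromosome 17, 34360328 to 34363231, - strand), showed the smallest p among genes that fell. It had 181, 189 and 209 CPM with MCHP, against 261, 296 and 265 CPM with DMSO, and its log2 fold change was -0.51 ± 0.05 (SE; adjusted p = 6.7e-08, edgeR). CCL3 and its near-identical copy CCL3L1, which the counting may split, rose by 0.28 when summed (adjusted p = 6.8e-05), and CCL4 with CCL4L2 rose by 0.22 (adjusted p = 0.0029, edgeR). IL1B, at 10102, 9779 and 10013 CPM with MCHP and 10220, 10300 and 9651 CPM with DMSO, overlapped between groups, with a log2 fold change of -0.01 (adjusted p = 0.91, edgeR). CCL2 had a log2 fold change of -0.05 (adjusted p = 0.72, edgeR), and IL6 had 3 counts in all with MCHP and 1 with DMSO.

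Of the 31 tested interferon gamma and M1 marker genes, 0 rose and 6 fell: CXCL10, CXCL9, CCL5, CIITA, FCGR1A and TNFSF10. In this list 19.4% of genes were called, against 2.07% of all tested genes, and its median log2 fold change was -0.04. CXCL10, an interferon-induced chemokine for T cells whose promoter is shown above (chromosome 4, 76021117 to 76023497, - strand), had 278, 254 and 266 CPM in MCHP libraries, against 350, 333 and 324 CPM in DMSO libraries. Every MCHP library lay below every DMSO library, with a log2 fold change of -0.34 ± 0.04 (SE; adjusted p = 1.6e-06, edgeR). CXCL9, its neighbour on chromosome 4, had 85.6, 84.6 and 82.8 CPM with MCHP, against 101, 97.4 and 113 CPM with DMSO (log2 fold change -0.30, adjusted p = 0.00043, edgeR). IDO1, the interferon-induced enzyme that breaks down tryptophan, had a log2 fold change of -0.14 and did not pass (adjusted p = 0.23, edgeR).

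Of 35 tested genes that respond to type I interferon, 4 rose (RSAD2, MX2, OASL and OAS3) and 0 fell. The called share was 11.4%, against 2.07% of all tested genes, 31 had a positive log2 fold change, and the median was 0.09. RSAD2, which encodes the antiviral protein viperin, had 115, 112 and 112 CPM with MCHP, against 88.0, 86.6 and 85.9 CPM with DMSO, without overlap (log2 fold change 0.38 ± 0.04, SE; adjusted p = 1.7e-06, edgeR). MX2 and OASL each rose by 0.18 (adjusted p = 0.0083 and 0.015, edgeR) and OAS3 by 0.13 (adjusted p = 0.038, edgeR). OAS3 lost its call after a correction for gene length (adjusted p = 0.072).

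In class II antigen presentation, the regulator and the chaperone fell. CIITA, the transactivator of class II genes, had 22.7, 26.2 and 22.4 CPM with MCHP, against 30.9, 32.8 and 35.4 CPM with DMSO, without overlap (log2 fold change -0.48 ± 0.08, SE; adjusted p = 0.00034, edgeR). CD74, the invariant chain that guards the class II groove, had 428, 425 and 420 CPM with MCHP, against 489, 487 and 461 CPM with DMSO (log2 fold change -0.18, adjusted p = 0.0016, edgeR). Of 13 tested members of the class II list, these 2 fell and 0 rose, or 15.4% called against 2.07% of all tested genes. The 13 had a median log2 fold change of -0.33. The class II chains themselves were low: HLA-DRA averaged 6.55 CPM with MCHP and 9.33 CPM with DMSO (log2 fold change -0.51, adjusted p = 0.061, edgeR). HLA-DPA1 averaged 3.11 and 5.00 CPM in the same order (log2 fold change -0.68, adjusted p = 0.075). Among 19 tested class I genes, none were called, where 2.07% of all genes were, and the median was 0.01.

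**Figure D3:**
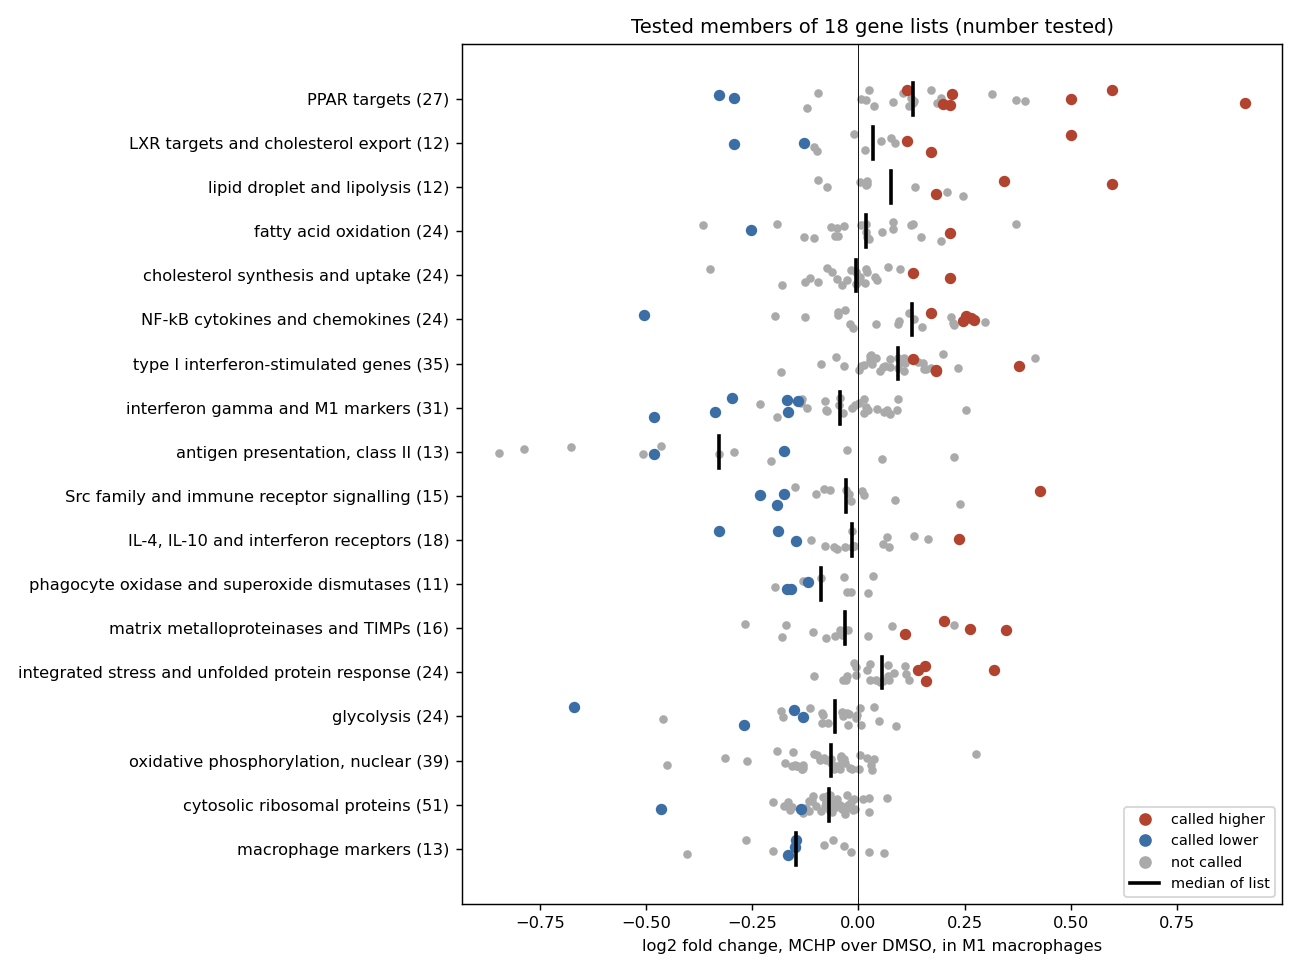
Log2 fold changes of MCHP over DMSO in M1 macrophages (x axis) for the tested members of 18 gene lists (rows, number tested in brackets), with called genes in red (higher) or blue (lower), others in grey and the list median as a black bar. The PPAR row reaches 0.91 at CD36, and the class II row has the lowest median, -0.33.

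Receptors and early signalling genes changed in both directions. TLR4, the lipopolysaccharide receptor (chromosome 9, 117704175 to 117724730, + strand), had 44.4, 39.7 and 39.4 CPM in MCHP libraries, against 30.2, 30.5 and 31.4 CPM in DMSO libraries. The groups were well apart, with a log2 fold change of 0.42 ± 0.07 (SE; adjusted p = 0.00025, edgeR). TLR8, an endosomal RNA sensor, was the other called gene of 20 in the Toll-like receptor list. That list had a median of -0.03 and 10.0% called, against 2.07% of all tested genes. TLR8 fell by 0.35 (adjusted p = 0.038, edgeR), a call that was lost in all 6 analyses with 1 library left out (adjusted p up to 0.16). IL10RA, the ligand-binding chain of the interleukin 10 receptor, had 161, 166 and 157 CPM with MCHP, against 198, 203 and 207 CPM with DMSO, without overlap (log2 fold change -0.33 ± 0.04, SE; adjusted p = 2.5e-06, edgeR).

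Of 18 tested cytokine receptor genes, IL10RA, CSF2RB and CSF1R fell and IL6R rose, or 22.2% called against 2.07% of all tested genes. The 18 had a median log2 fold change of -0.02. CSF2RB, the shared chain of the GM-CSF receptor family, averaged 141 ± 6.16 CPM with MCHP and 161 ± 8.33 CPM with DMSO (SD, n = 3 each; adjusted p = 0.011 by edgeR). CSF1R, the receptor that sustains macrophages, averaged 253 ± 4.87 CPM with MCHP and 281 ± 2.92 CPM with DMSO (SD, n = 3 each; adjusted p = 0.014 by edgeR). CX3CR1, the fractalkine receptor, was lower in all MCHP libraries, with 4.02, 4.27 and 5.14 CPM, against 8.09, 7.24 and 7.19 CPM with DMSO (log2 fold change -0.75 ± 0.16, SE; adjusted p = 0.0061, edgeR). The CX3CR1 call was lost with DESeq2 and without MCHP replicate 1 (adjusted p = 0.056, edgeR).

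Among 15 tested Src family and immune receptor signalling genes, FGR rose and 3 fell, among them LCP2 and FCER1G. In this list, with a median of -0.03, 26.7% were called, against 2.07% of all tested genes. FGR, a Src family kinase of myeloid cells, had 57.8, 65.2 and 61.2 CPM with MCHP, against 44.9, 47.8 and 44.1 CPM with DMSO (log2 fold change 0.43 ± 0.06, SE; adjusted p = 2.7e-05, edgeR). LCP2, an adaptor of immune receptors, fell by 0.19 (adjusted p = 0.00062), and FCER1G, the shared gamma chain of Fc receptors, fell by 0.23 (adjusted p = 0.0023, edgeR).

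The oxidative burst genes that were called all fell. Of 11 tested phagocyte oxidase and superoxide dismutase genes, 3 fell, among them NCF1 and CYBB, and 0 rose. That was 27.3% called, against 2.07% of all tested genes, with a median log2 fold change of -0.09. NCF1, a cytosolic subunit of the oxidase, has near-identical pseudogenes that may share its reads, and averaged 684 CPM with MCHP and 764 CPM with DMSO (adjusted p = 0.0044, edgeR). CYBB, the membrane subunit, averaged 916 and 995 CPM in the same order (adjusted p = 0.046, edgeR), a call that was lost after a correction for gene length (adjusted p = 0.082).

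Of 16 tested matrix metalloproteinase and inhibitor genes, MMP19, MMP3, MMP1 and TIMP3 rose and 0 fell (25.0% called, against 2.07% of all tested genes). Still, 9 of the 16 had a negative log2 fold change and the list had a median of -0.03. MMP19, a secreted metalloproteinase, had 240, 244 and 253 CPM with MCHP, against 201, 188 and 191 CPM with DMSO, without overlap (log2 fold change 0.35 ± 0.04, SE; adjusted p = 9.3e-07, edgeR). MMP3, or stromelysin 1, had 122, 123 and 123 CPM with MCHP, against 100.4, 103 and 103 CPM with DMSO (adjusted p = 0.00022, edgeR). TIMP3, which inhibits such enzymes, rose by 0.20 (adjusted p = 0.0079, edgeR).

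Stress-response genes rose where they were called. ATF3, an early transcription factor induced by many stresses (chromosome 1, 212565334 to 212620777, + strand), had 637, 609 and 618 CPM with MCHP, against 498, 501 and 494 CPM with DMSO. The groups lay far apart relative to their spread, with a log2 fold change of 0.32 ± 0.03 (SE; adjusted p = 1.7e-07, edgeR). Of 24 tested genes of the integrated stress and unfolded protein responses, ATF3, SESN2, DDIT4 and ERN1 rose and 0 fell. The list had 16.7% called, against 2.07% of all tested genes, and a median of 0.05. SESN2, an inhibitor of mTORC1 signalling, averaged 396 CPM with MCHP and 355 CPM with DMSO (adjusted p = 0.0061, edgeR), while ERN1, the endoplasmic reticulum sensor IRE1, had an adjusted p of 0.046 that missed the threshold in DESeq2 (0.059), limma-voom (0.053) and with a replicate block (0.053).

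TXNRD1 and SQSTM1, which NRF2 activates under oxidative stress, rose by 0.25 and 0.14 (adjusted p = 0.00057 and 0.011, edgeR). None of the other 20 tested NRF2 targets were called, so 9.09% of the list was called, against 2.07% of all tested genes. Of 22 early response and AP-1 genes, ATF3 rose and 2 fell, or 13.6% called, with a median of 0.05. NR4A1, an orphan nuclear receptor, averaged 34.2 ± 2.25 CPM with MCHP and 42.4 ± 2.06 CPM with DMSO (SD, n = 3 each; adjusted p = 0.0064 by edgeR), and JUNB, an AP-1 subunit, changed by -0.14 (adjusted p = 0.016, edgeR), a call lost after a correction for gene length (0.089). ALAS1, the rate-limiting enzyme of heme synthesis, had 208, 195 and 198 CPM with MCHP, against 253, 264 and 248.7 CPM with DMSO. It was the only called gene among 13 of heme synthesis and breakdown (7.69%), with a log2 fold change of -0.35 ± 0.04 (SE; adjusted p = 9.3e-07, edgeR).

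Of 24 tested glycolysis genes, SLC2A3, GAPDH, LDHA and ALDOA fell and 0 rose, or 16.7% called against 2.07% of all tested genes. The 24 had a median log2 fold change of -0.06. SLC2A3, the glucose transporter GLUT3, had 106, 103 and 98.0 CPM with MCHP, against 128, 118 and 124 CPM with DMSO (log2 fold change -0.27, adjusted p = 0.00035, edgeR). GAPDH fell by 0.13 (adjusted p = 0.017, edgeR), a call that was lost after a correction for gene length (0.089). With 1 library left out, LDHA and ALDOA lost the call in 5 of 6 analyses and GAPDH in 3. ALDOA had only 4.38 CPM with MCHP and 6.96 CPM with DMSO, and it overlaps another gene model, to which its reads may be counted. None of 39 tested nuclear genes of oxidative phosphorylation were called, where 2.07% of all genes were, and their median was -0.07.

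Of the 13 mitochondrially encoded genes, MT-CO1 and MT-CYB rose, or 15.4% called against 2.07% of all tested genes, with a list median of 0.10. MT-CO1, a core subunit of cytochrome oxidase, had 7482, 8087 and 7535 CPM with MCHP, against 6907, 6630 and 7251 CPM with DMSO (log2 fold change 0.15, adjusted p = 0.0035, edgeR). The share of all counts from mitochondrial genes was 3.09% ± 0.134 with MCHP and 2.96% ± 0.171 with DMSO (SD, n = 3 each; two-sided exact permutation p = 0.40, where 3 against 3 cannot go below 0.10). Of 51 tested cytosolic ribosomal protein genes, RPS23 and RPS24 fell and 0 rose, or 3.92% called, near the 2.07% of all tested genes. In this list 47 had a negative log2 fold change, with a median of -0.07, against -0.0021 over all tested genes. RPS24 lost its call in 4 of 6 analyses with 1 library left out. RPS23 stood apart, at 44.2, 44.1 and 46.0 CPM with MCHP, against 57.7, 61.1 and 66.5 CPM with DMSO (log2 fold change -0.47 ± 0.06, SE; adjusted p = 8.7e-06, edgeR). Its adjusted p was 0.94 when edgeR took the spread from all 12 libraries.

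Gene length moved with part of the difference between the groups, most of all through DMSO replicate 2 and MCHP replicate 2. When the 9997 genes with a mean of at least 5 CPM were split by length into 5 equal groups, the median log2 fold change was -0.03 in the shortest, with 22 that rose and 42 that fell, and 0.01 in the longest, with 40 that rose and 22 that fell. With a correction for this, 271 genes were called, 255 of them among the 295, and the ribosomal list's median moved to -0.05. The median of the PPAR targets stayed at 0.13, with 6 called higher and 1 lower. The part of length in the smaller changes was not otherwise tested.

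**Figure D4:**
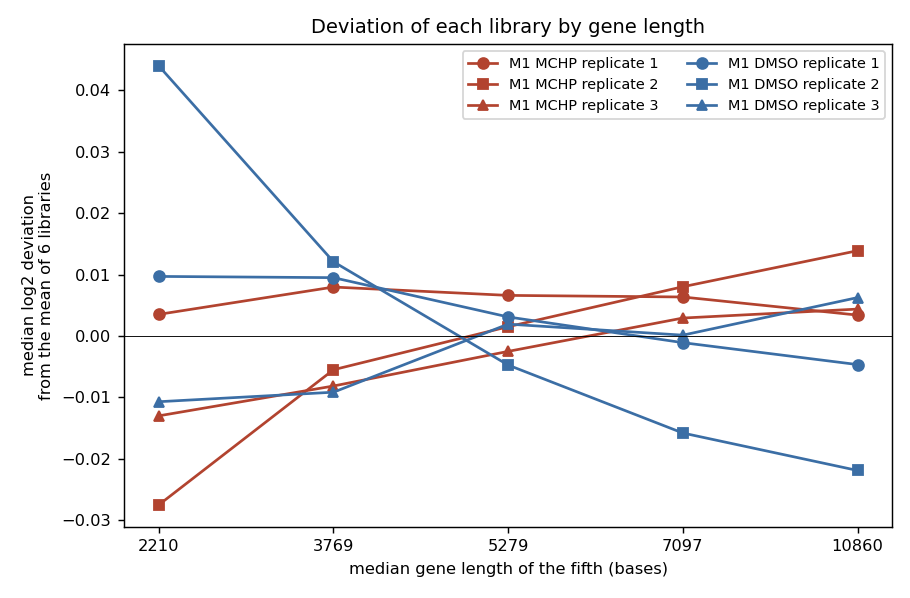
Median log2 deviation of each M1 library from the mean of the 6 libraries (y axis) over 5 equal groups by length of the 9997 genes with a mean of at least 5 CPM (x axis, median length in bases), with MCHP libraries in red and DMSO libraries in blue. DMSO replicate 2 reaches 0.044 and MCHP replicate 2 lies at -0.0275 in the shortest group, and the lines of the other 4 libraries stay closer to 0.

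Several of the largest changes belonged to genes outside these groups. GPC1, a cell-surface heparan sulfate proteoglycan (chromosome 2, 240435671 to 240468078, + strand), had 9.29, 9.51 and 9.07 CPM with MCHP, against 4.32, 4.50 and 3.81 CPM with DMSO. It was 2.21-fold higher, without overlap (log2 fold change 1.14 ± 0.15, SE; adjusted p = 1.7e-05, edgeR). SHANK3, a scaffold protein best known from synapses (chromosome 22, 50674415 to 50733298, + strand), had 23.5, 22.6 and 24.0 CPM with MCHP, against 15.4, 13.8 and 13.7 CPM with DMSO (log2 fold change 0.71 ± 0.09, SE; adjusted p = 6.8e-06, edgeR). VIPR2, a receptor for vasoactive intestinal peptide, had 19.6, 20.7 and 19.6 CPM with MCHP, against 13.99, 13.2 and 15.3 CPM with DMSO (log2 fold change 0.49, adjusted p = 0.0017, edgeR).

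PODXL, a sialomucin of the cell surface, had 36.6, 35.9 and 38.0 CPM with MCHP, against 27.6, 27.9 and 29.6 CPM with DMSO (log2 fold change 0.38, adjusted p = 0.0011, edgeR). ANXA1, which encodes the anti-inflammatory protein annexin A1, averaged 15.4 ± 1.63 CPM with MCHP and 10.3 ± 0.439 CPM with DMSO (SD, n = 3 each; adjusted p = 0.0016 by edgeR). DPYSL3, ALPK3 and PPP2R3A rose by 0.61, 0.52 and 0.55 on the log2 scale (adjusted p = 0.00062, 0.0026 and 0.017, edgeR). Among genes that fell, the adhesion receptor gene ADGRG3, the tetraspanin TSPAN32, the exchange factor FGD4 and the pseudokinase PTK7 changed by -0.52, -0.52, -0.58 and -0.55 (adjusted p = 0.0010, 0.0052, 0.0057 and 0.0072, edgeR). S100A8 and S100A9, which together form calprotectin, fell by 0.48 and 0.28 (adjusted p = 0.0027 and 0.00032, edgeR).

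Some large changes lay in near-identical gene copies, whose reads the counting may split. EIF3C and EIF3CL, summed, had 358, 426 and 1154 counts in MCHP libraries, against 211, 299 and 248 counts in DMSO libraries (log2 fold change 1.34, adjusted p = 0.00097, edgeR). MCHP replicate 3 stood far above the others, and EIF3CL alone had 32.2 CPM there, against 2.87 to 3.96 CPM in the other 5 libraries. SMN1 and SMN2 rose by 0.65 and CKMT1A and CKMT1B fell by 0.56 when summed (adjusted p = 0.012 and 0.019, edgeR). Taken alone, EIF3C, CKMT1B and SMN1 were not called by DESeq2 (adjusted p = 0.095, 0.085 and 0.31). GPR89B, called alone at 0.73 (adjusted p = 0.0047), was not called when summed with GPR89A (log2 fold change 0.11, adjusted p = 0.82, edgeR).

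Markers of other cell states and types were given beside these results, and their part in them was not tested. Of 13 tested macrophage markers, CSF1R, FCGR1A and LYZ fell and 0 rose (23.1% called, against 2.07% of all tested genes). With 1 library left out, LYZ lost the call in 4 of 6 analyses, CSF1R in 3 and FCGR1A in 1. LYZ also lost it after the correction for gene length (adjusted p = 0.082, edgeR). Of the 13, 11 had a negative log2 fold change, with a median of -0.15. The summed level of the 16 listed was 5486 to 5600 CPM with MCHP and 5467 to 5526 CPM with DMSO. CTSB alone averaged 3801 CPM with MCHP and 3648 CPM with DMSO, scaled over 12 libraries, so it made up most of that sum. The summed level of 12 monocyte markers was 220 to 237 CPM with MCHP and 250.2 to 268 CPM with DMSO, without overlap. Most of that gap came from S100A9 (means of 82.7 and 100.5 CPM) and S100A8 (21.2 and 29.6 CPM). Sums without overlap were also seen in other lists, even with no called gene. The nuclear oxidative phosphorylation list had 2813 to 2823 CPM with MCHP and 2887 to 3081 CPM with DMSO. S100A8 and S100A9 fell among the 8 tested, or 25.0% called against 2.07% of all tested genes. The summed level was 120 to 126 and 121 to 132 CPM for 14 lymphocyte markers (CD2, CD3D, CD3G and MS4A1 at 0, 1 of 6 tested called, or 16.7%, TRAC, which fell), in the order MCHP and DMSO. It was 38.3 to 41.0 and 38.2 to 38.9 CPM for 9 neutrophil and granulocyte markers (CEACAM8 at 0), and 228 to 242 and 237 to 243 CPM for 11 dendritic cell markers (CLEC4C and FCER1A at 0), in that order, with none called. It was 29.1 to 34.1 and 33.5 to 39.3 CPM for 9 adipocyte markers (ADIPOQ at 0), of which PPARG fell (33.3% of the 3 tested), and 119 to 136 and 114 to 120 CPM for 10 epithelial and fibroblast markers (EPCAM, KRT18, COL3A1 and DCN at 0), with none called.

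In M2 macrophages most of these genes had a log2 fold change of the same sign. The M2 response was fitted from the 6 M2 libraries alone, which share no library with the M1 comparison. Of the 149 genes that rose in M1, 31 rose in M2 (20.8%) and 0 fell, where 0.716% of all tested genes rose. Of the 142 tested of the 146 that fell in M1, 29 fell in M2 (20.4%) and 0 rose, where 0.544% of all genes fell. Without M2 DMSO replicate 1, in a fit of the other 11 libraries that shares the M1 spread, 90 of the 149 rose in M2 and 4 fell, where 6.29% of all genes rose. In that fit 78 of the 146 fell and 5 rose, where 4.89% fell. With the 6 M2 libraries the sign in M2 was the same for 87.9% of the genes that rose in M1, with a median log2 fold change of 0.26 in M2, and for 88.0% of those that fell, with a median of -0.25. Over all tested genes, 48.9% had a positive and 51.1% a negative sign in M2. CD36, PLIN2, NR1H3, SHANK3, GPC1 and MMP19 rose in both states, and CCL1, ALAS1, IL10RA and CX3CR1 fell in both.

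**Figure D5:**
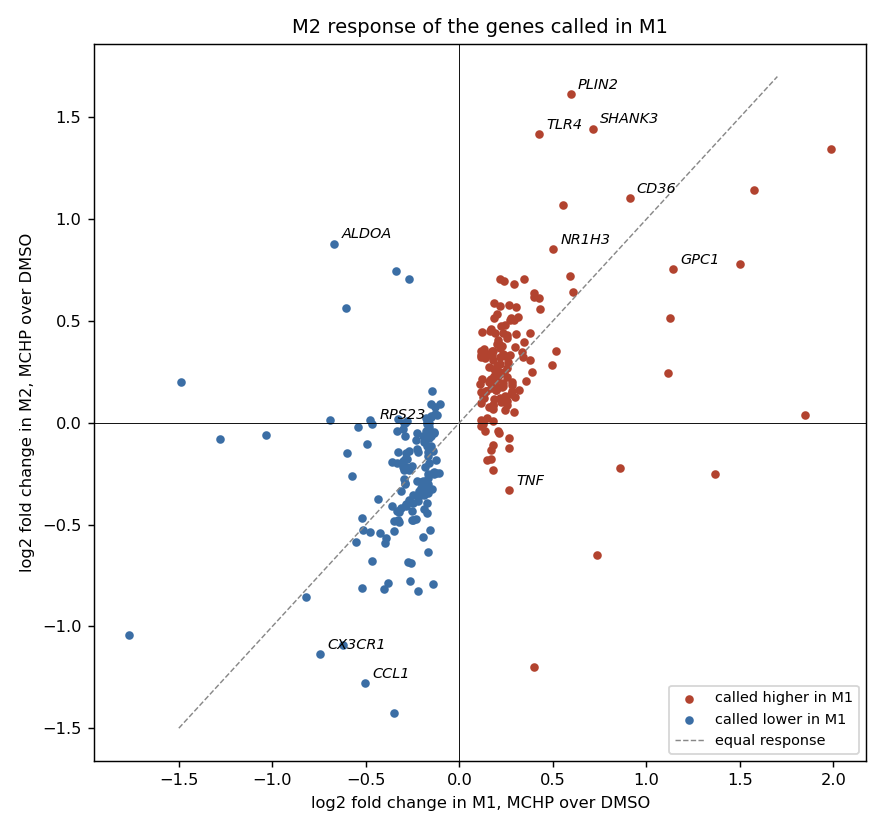
Log2 fold change of MCHP over DMSO in M2 macrophages (y axis, 12-library fit) against that in M1 macrophages (x axis, 6-library fit) for the 295 genes called in M1, red where they rose in M1 and blue where they fell. Most points lie in the quadrants of equal sign, PLIN2, TLR4 and SHANK3 lie well above the dashed line of equal response, and TNF and ALDOA have opposite signs.

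The difference of the responses, M1 minus M2, was tested over all 12 libraries, and 25 genes of 15252 were called (0.164%), 9 with a positive and 16 with a negative difference. One library of the M2 controls, DMSO replicate 1, differed from its group, with counts in 23734 genes against 22651 and 22731 in the other two. Without it 385 genes were called (2.46%), and without any other single library 5 to 36. Of the genes called in M1, 5 were among the 25: PLIN2, TLR4 and ACSL5 with a smaller rise in M1 than in M2, CCL1 with a smaller fall, and the ferritin pseudogene FTH1P23. PLIN2 rose by 0.60 in M1 and by 1.61 in M2, a difference of -1.02 (adjusted p = 0.00015, and 5e-08 without that library). In M2 it had 144, 156 and 144 CPM with MCHP, against 51.3, 46.5 and 47.1 CPM with DMSO, scaled over 12 libraries, so its MCHP level was above that of every M1 library. TLR4 rose by 0.42 in M1 and by 1.42 in M2, a difference of -0.99 (adjusted p = 0.00015, and 4.6e-07 without it, edgeR), with 61.2, 60.9 and 64.1 CPM in M2 MCHP libraries, against 23.0, 22.8 and 23.8 CPM in M2 DMSO libraries.

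CCL1 fell by 0.51 in M1 and by 1.28 in M2, a difference of 0.78 (adjusted p = 0.031, and 0.00015 without M2 DMSO replicate 1, edgeR). CD36, at 0.91 in M1 and 1.10 in M2, had a difference of -0.19 that did not pass with all libraries (adjusted p = 0.69) and passed without that library (-0.33, adjusted p = 0.0085). TNF had opposite signs, 0.26 in M1 (adjusted p = 0.00025, edgeR over the 6 M1 libraries) and -0.33 in M2. In M2 the adjusted p was 0.041 over 12 libraries and 0.20 over the 6 M2 libraries (edgeR). Over 12 libraries the M1 change of TNF did not pass (adjusted p = 0.54, edgeR), so neither set of fits called both states. The difference for TNF was 0.60, with an adjusted p of 0.067 with all libraries and of 0.0015 without M2 DMSO replicate 1. RPS23, at -0.47 in M1, had a log2 fold change of -0.01 in M2, with a difference of -0.46 (adjusted p = 0.74) that became -1.01 without that library (adjusted p = 5e-08).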

How the data were processed

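RNA was read as unnormalized whole counts per gene, which the authors deposited for all 12 libraries in 1 table with gene annotation, per the file headers. Tools named in the submitters' processing notes, without roles, are featureCounts 1.5.0-p3, HISAT2 2.0.5, DESeq2 1.20.0, StringTie 1.3.3b and fastp, and the build is hg38. The strand setting is not given in the sources used here, so overlapping and antisense genes cannot be told apart. Of 58907 genes, 172 were unannotated models and 30055 had no count in the 6 M1 libraries.

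Counts of the 6 M1 libraries were fitted alone in R 4.3.3 with edgeR 4.0.16: filterByExpr (14269 genes, at least 99.8% of counts), TMM factors, quasi-likelihood F-test (two-sided, 4 residual degrees of freedom), and Benjamini-Hochberg adjustment over all tested genes with a threshold of 0.05. CPM are TMM-scaled, except the summed levels of marker lists, which are scaled to library size only. SE were derived from the F statistic. M1 minus M2 was tested in a fit of 12 libraries (15252 genes). Alternatives were other scalings, filters, limma-voom (limma 3.58.1), DESeq2 1.42.0, libraries left out, a replicate block and a required log2 fold change of 0.26. Summed copies, a 10 CPM filter, gene length, GC content, the 6 M2 libraries alone and M2 without DMSO replicate 1 were added after seeing the data. The script was tested on simulated data.

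The 44 gene lists and the genes fixed by name were chosen with earlier results of these data known. Named genes were the 12 called protein-coding genes with the largest change in each direction (mean of at least 5 CPM, groups not overlapping), up to 4 called members of each list with at least 2, and the fixed set. Other called members of a list, members that missed the test, gene copies, pseudogenes and FTH1P23 were picked once their values were known. Some genes counted in the lists are not reported here by name.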

Additional observations from a re-analysis of the deposited data

Results flagged for a closer look

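Among the genes called in M1, 3 named genes had a response to MCHP that differed between M1 and M2 macrophages by the test of the difference itself (edgeR quasi-likelihood test over 12 libraries). PLIN2, the lipid droplet coat, rose less in M1 than in M2, with a difference of -1.02 on the log2 scale (adjusted p = 0.00015), and stayed called with each of the 12 libraries left out in turn. TLR4, the lipopolysaccharide receptor, also rose less in M1, with a difference of -0.99 (adjusted p = 0.00015), and stayed called in the same way. CCL1, a chemokine, fell less in M1, with a difference of 0.78 (adjusted p = 0.031). Its call was lost in 8 of the 12 analyses that left out 1 library, with adjusted p-values up to 0.17. The adjusted p was 0.061 with a replicate block and 0.051 in limma-voom, and 0.00015 without M2 DMSO replicate 1.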

How the results depend on the processing

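The count of 295 genes called in M1 lay between 258 and 385 under other scalings, filters and tools and after corrections for gene length (271) or GC content (260). It fell to 8 when a log2 fold change above 0.26 was demanded (6 higher, 2 lower: CD36, PLIN2, SHANK3, GPC1, EIF3C, SMG1P5, CCL1 and CKMT1B). It fell to 13 when the spread was taken from all 12 libraries. Among these, M2 DMSO replicate 1 stands apart, and its part in the 13 calls was not tested. With 1 M1 library left out the count was 185 to 259, where fewer samples were tested, and 126 genes were called in all 6 of these analyses. Calls shared with the 295 numbered 248 with DESeq2 and 279 with limma-voom.

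The count of 25 genes whose response differed between M1 and M2 became 170 with no filter on low counts and 96 with DESeq2, the cause was not tested, and 5 to 385 with 1 library left out, the highest without M2 DMSO replicate 1. Of 100 named genes, none changed direction while called. Among those called, 9 lost the call with DESeq2, 10 after the GC correction, 8 after the length correction and 14 to 26 with 1 library left out. IL1B, not called, ranged from -0.0393 to 0.00453 with 1 library left out and was 0.00394 after the length correction, and ABCG1, not called, ranged from -0.376 to 0.0826 with 1 library left out. Same-numbered replicates did not deviate together (correlations of 0.0742, -0.116 and -0.00686), which does not tell whether they were prepared together. With a replicate block 310 genes were called in M1, 283 of them among the 295, and 24 for the difference. Depth limits genes under a few CPM, such as FABP4 and IL6.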

Other observations

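None of the 30 tested lysosome genes, 32 cell cycle and DNA replication genes, 11 iron handling genes, 12 inflammasome and pyroptosis genes, 7 AHR target and ester hydrolase genes and 6 metallothioneins were called (edgeR quasi-likelihood test), where 2.07% of all tested genes were. Their median log2 fold changes were 0.02, -0.08, 0.07, -0.01, 0.02 and -0.11, in that order. With 6 to 32 genes a list, 0 calls are near the share over all genes. The log2 fold change was negative for 6 of 6 metallothioneins and for 22 of 32 cell cycle genes. Of 24 tested p53 target and apoptosis genes, 1 was called (4.17%): BCL2A1, an NF-kB-induced survival gene, averaged 124 CPM with MCHP and 144 CPM with DMSO (adjusted p = 0.0068 by edgeR). Of 13 fatty acid synthesis and desaturation genes, SCD was called (7.69%) and rose, with a median of 0.03. Of 12 M2 markers, TGM2 was called (8.33%) and rose, with a median of -0.19, while 0 of these 12 were called after the length correction. TGM2, a protein cross-linking enzyme, had 2201, 2216 and 2209 CPM with MCHP, against 2034, 2067 and 2020 CPM with DMSO (adjusted p = 0.015 by edgeR).

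Of 21 tested integrin and adhesion genes, PODXL and ITGA5 rose and CD9, ITGA6 and PECAM1 fell (23.8% called, against 2.07% of all tested genes). The list's median log2 fold change was 0.0006, and was -0.001 with libraries scaled by size only and -0.0014 after the length correction. ITGA5, a chain of the fibronectin receptor, averaged 796 ± 11.2 CPM with MCHP and 709.7 ± 26.0 CPM with DMSO (SD, n = 3 each; adjusted p = 0.0018 by edgeR). PECAM1, an adhesion molecule of leukocytes and endothelium, averaged 774 ± 5.92 CPM with MCHP and 861 ± 21.4 CPM with DMSO (SD, n = 3 each; adjusted p = 0.0026 by edgeR). Of 14 tested chemoattractant receptors, CX3CR1 fell and 0 rose (7.14% called), with a median of -0.01 that turned to 0.01 after the length correction.

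Of the 12 genes called in M1 with a log2 fold change of at least 1 in size, 3 were the pseudogenes SMG1P5, SPCS2P4 and AC011330.1, which rose, and 5 stayed under 4 CPM in every library. Of these 5, CCDC169 and the antisense gene AL365277.1 rose, while the cystatin gene CST1, the long noncoding RNA AC025181.2 and the antisense gene AL512791.1 fell. CCDC169 had 3.24, 3.57 and 3.30 CPM with MCHP, against 1.58, 1.305 and 1.72 CPM with DMSO (adjusted p = 0.0072 by edgeR). The groups overlapped for the pseudogenes SPCS2P4 and AC011330.1. SPCS2P4 had 12.6, 3.01 and 7.04 CPM with MCHP, against 3.77, 3.26 and 1.17 CPM with DMSO. AC011330.1 had 1.56, 4.34 and 6.15 CPM with MCHP, against 0.823, 0.913 and 2.21 CPM with DMSO.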
